A study of Mus musculus with 5 samples.

Results

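Hearts of mice labelled Tet2+/- that had received a bone marrow transplant were compared with and without oridonin, a diterpenoid of the herb Rabdosia rubescens. The comparison used 4 of the 5 libraries of the series, chosen by their labels. They were 2 Tet2+/- hearts given vector and 2 Tet2+/- hearts given Oridonin. The fifth library, from a WT heart given vector after the same transplant, is printed beside them as a single value with no replicate. Its column gave whole counts for 33.5% of genes only, so its counts and CPM are approximate. All hearts came from male mice, were taken 12 months after the transplant and carry a treatment time of 2 months. The sources used here do not give the dose, the age, which cells carried the Tet2 allele, or whether a library came from 1 animal or a pool.

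Tet2 oxidises methylated cytosine in DNA, and blood cell clones that have lost a copy of it expand with age, a state called clonal hematopoiesis. In the heart, fibroblasts make the fibrillar collagens and the small proteoglycans that coat them, and an excess of this matrix is called fibrosis. Oridonin is known to bind the inflammasome sensor NLRP3 covalently. The series title names another target, the histone H3 demethylase KDM5C, and the secreted factors of senescent cells as the process studied.

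Levels are given in CPM, a gene's read count relative to the size of its library. The Tet2 values were recovered from deposited log2 values, in which each Tet2 column mixed 0.75 of its own log2 value with 0.25 of that of the other replicate. The 4 totals ran from 14574823 to 15535778 counts, so that 3 counts correspond to 0.193 to 0.206 CPM. Heart muscle markers were high in all 4 libraries, with Myh6, the main myosin heavy chain of the adult mouse heart, between 12264 and 22083 CPM. The first vector library stood apart: it held 4198 counts of Myl4 and 2739 of Myl7, light chains of atrial myosin, where the other Tet2 libraries held at most 24 and 1. Over the genes tested, the log2 levels of the vector replicates differed by a median of 0.35, those of the oridonin replicates by 0.23, and the group means by 0.15. Tet2 was at 19.2 and 7.76 CPM under vector and 9.43 and 17.9 CPM with oridonin, and Kdm5c at 37.7 and 22.1 CPM under vector and 27.5 and 31.6 CPM with oridonin. Both genes overlapped between the groups, and whole heart is mostly not marrow-derived, so these levels check neither the genotype nor the inhibition of the enzyme.

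The genes that separated the groups most sharply are shown first with the DNA just before their start sites, where transcription begins and where lysine 4 of histone H3, the residue KDM5C demethylates, is typically methylated at active genes. For each direction these are the 3 genes of smallest p that matched the RefSeq promoter table (GRCm38.p6). The 250 bases before the start are written 5′ to 3′ on the gene's own strand. Capitals mark TATAAA, the TATA box, and CAGAC, a core of the sites bound by SMAD factors of the TGF-beta pathway, searched on both strands. These 3 genes were lower with oridonin:
Angptl7, chr4:148500463-148500712, minus strand: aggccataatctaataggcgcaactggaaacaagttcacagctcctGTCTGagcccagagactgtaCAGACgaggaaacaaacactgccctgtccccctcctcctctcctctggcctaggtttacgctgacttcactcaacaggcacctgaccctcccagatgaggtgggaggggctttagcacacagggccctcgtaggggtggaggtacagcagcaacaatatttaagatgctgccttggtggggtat
Fmod, chr1:134037004-134037253, plus strand: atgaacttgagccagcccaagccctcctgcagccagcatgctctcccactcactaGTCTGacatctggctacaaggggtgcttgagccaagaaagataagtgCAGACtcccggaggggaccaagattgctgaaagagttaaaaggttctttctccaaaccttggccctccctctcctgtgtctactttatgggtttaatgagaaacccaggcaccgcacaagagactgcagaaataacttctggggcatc
Postn, chr3:54360857-54361106, plus strand: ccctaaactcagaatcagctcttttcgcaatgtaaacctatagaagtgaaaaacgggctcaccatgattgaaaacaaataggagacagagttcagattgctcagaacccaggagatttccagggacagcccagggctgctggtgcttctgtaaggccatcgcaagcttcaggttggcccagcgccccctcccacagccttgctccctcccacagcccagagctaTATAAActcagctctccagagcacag
These 3 genes were higher with oridonin:
Slc15a2, chr16:36784963-36785212, minus strand: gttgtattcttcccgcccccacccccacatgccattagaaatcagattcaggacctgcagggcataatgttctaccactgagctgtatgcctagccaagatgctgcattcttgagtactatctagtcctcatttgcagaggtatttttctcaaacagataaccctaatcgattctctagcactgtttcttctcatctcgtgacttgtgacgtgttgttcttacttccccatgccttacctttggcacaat
Lgr6, chr1:135105277-135105526, minus strand: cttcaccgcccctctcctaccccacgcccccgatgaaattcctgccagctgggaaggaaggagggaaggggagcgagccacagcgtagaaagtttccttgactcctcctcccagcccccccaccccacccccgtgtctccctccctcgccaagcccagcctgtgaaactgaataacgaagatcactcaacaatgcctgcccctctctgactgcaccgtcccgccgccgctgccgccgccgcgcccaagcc
Timp4, chr6:115252206-115252455, minus strand: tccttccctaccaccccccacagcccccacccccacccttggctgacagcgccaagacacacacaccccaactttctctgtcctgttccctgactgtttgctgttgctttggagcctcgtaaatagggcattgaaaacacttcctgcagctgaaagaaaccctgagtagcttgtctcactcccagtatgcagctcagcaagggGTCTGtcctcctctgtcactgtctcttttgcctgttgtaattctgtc
CAGAC or its complement occurred 2 times each in the windows of Angptl7 and Fmod, 1 time in that of Timp4 and 0 times in those of Postn, Slc15a2 and Lgr6. It was present in 40.5% of the 9804 windows of tested genes. TATAAA occurred 1 time, before Postn, and was present in 6.51% of windows. The window of Lgr6 held 16 CpG pairs, the median over all windows, and those of the other 5 genes held 2 to 4. These matches describe the letters only. No share is given for longer lists of genes, because too few of their members matched a window (67.5% of the 151 lower and 61.1% of the 54 higher genes defined in the next paragraph).

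Across the transcriptome, differences between the groups were small, and which direction was more frequent depended on the scaling and on 1 library. Of 17818 genes in the table, 12639 reached at least 1 CPM in at least 2 of the 4 libraries and were tested with limma. At a false discovery rate (FDR) of 0.05, 0 genes (0%) were called, and the smallest adjusted p was 0.294. The genes named below therefore did not pass, and their values describe these libraries. An unadjusted p under 0.05 was reached by 82 genes higher (0.649%) and 244 genes lower (1.93%) with oridonin, 326 where chance alone gives 632. With counts rescaled by median-ratio size factors this split was 134 higher and 201 lower, and without the first vector library it was 515 higher and 357 lower. Both oridonin libraries lay above both vector libraries for 1054 genes (8.34%) and below both for 2237 genes (17.7%). Groups that separate in this way are called apart below. With median-ratio size factors 1661 genes were apart and higher and 1584 apart and lower, so that the order turned. Genes that were apart and differed by at least 1 in log2 numbered 54 higher (0.427%) and 151 lower (1.19%). The median log2 difference over all genes, oridonin minus vector, was -0.05. The filter admitted 36 of the 151 lower genes through the vector libraries alone, with both oridonin libraries under 1 CPM, and 14 of the 54 higher genes through the oridonin libraries alone. Such genes had to differ.

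Single libraries moved these counts. Limma called 5 genes without the first vector library, 3 without the second, 19 without the first oridonin library and 56 without the second, where the lone library left in a group is assumed to vary like the other group. Genes apart by at least 1 then numbered 296, 130, 113 and 82 higher, in the same order, and 205 to 503 lower, with 205 lower against 296 higher without the first vector library, since 3 libraries separate more easily than 4. With 2 libraries against 2, an exact permutation test of 1 gene cannot go below p = 0.333. The labels do not tell whether replicates were separate animals, and p-values therefore measure the spread between these libraries alone, which may be technical.

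**Figure D1:**
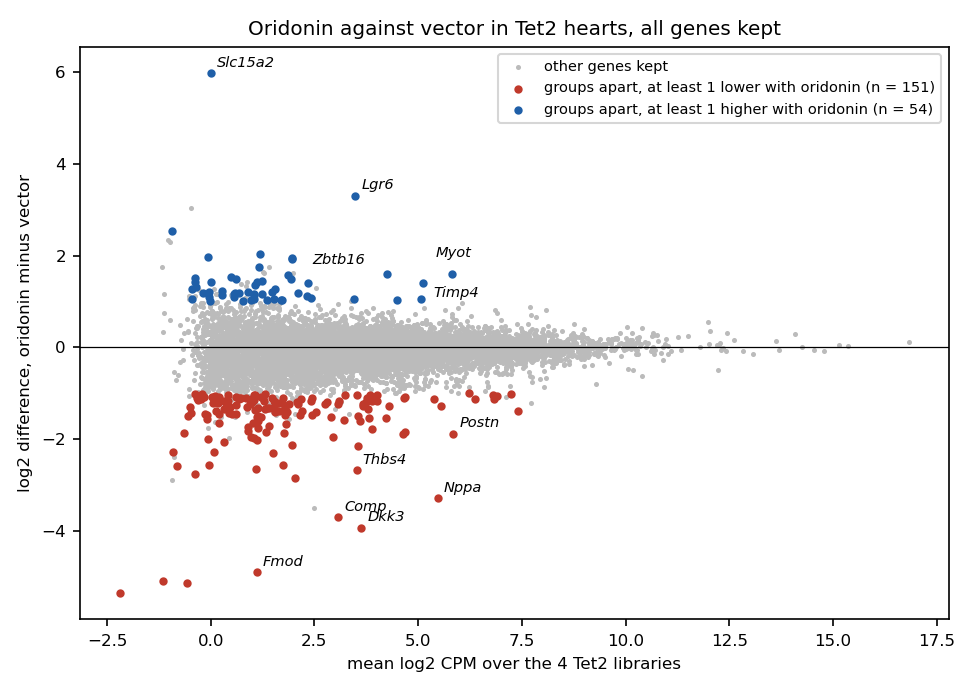
Each point is 1 of the 12639 genes tested, with its mean log2 CPM over the 4 Tet2 libraries on the horizontal axis and its log2 difference, oridonin minus vector, on the vertical axis. Coloured points are the 54 higher and 151 lower genes that are apart by at least 1, and Slc15a2 and Fmod lie farthest up and far down among them.

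The genes of smallest p among those lower with oridonin included proteins of the matrix around fibroblasts. Fmod, the small proteoglycan fibromodulin that binds collagen fibrils (chromosome 1, 134037254 to 134048277, GRCm38, plus strand), was at 12.6 and 11 CPM under vector and 0.205 and 0.618 CPM with oridonin, and at 0.533 CPM in WT. The vector libraries were both high and the oridonin libraries both near the detection floor. Its log2 difference was -4.90 (standard error 0.56; limma, adjusted p = 0.294). Summed over the replicates, its CPM were 28.7 times higher under vector, with an exact 95% interval of 16.2 to 56.0 that covers counting error only. Fmod passed the filter through the vector libraries alone, so it had to be lower.

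Angptl7, a secreted angiopoietin-like protein (chromosome 4, 148495183 to 148500460), was at 9.85 and 12.1 CPM under vector and 1.71 and 1.3 CPM with oridonin, and at 2.53 CPM in WT. Its log2 difference was -2.84 (standard error 0.32; limma, adjusted p = 0.294). Comp, the cartilage oligomeric matrix protein (chromosome 8, 70373558 to 70382066), was at 20 and 45.3 CPM under vector and 3.28 and 1.58 CPM with oridonin, with a log2 difference of -3.70 (standard error 0.51; limma, adjusted p = 0.615). The second vector library was the higher one for Comp, and the groups did not overlap. Postn, the matricellular protein periostin of activated fibroblasts (chromosome 3, 54361109 to 54391037), was at 87 and 141 CPM under vector and 30.6 and 29.3 CPM with oridonin, with a log2 difference of -1.88 (standard error 0.26; limma, adjusted p = 0.615). The oridonin values of Postn were close to each other and far below both vector values.

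Wdfy1, an adaptor protein of endosomes (chromosome 1, 79702262 to 79776143), was at 24.7 and 24.2 CPM under vector and 4.99 and 6.04 CPM with oridonin, and at 7.53 CPM in WT. Its replicates were close in both groups and its log2 difference was -2.15 (standard error 0.23; limma, adjusted p = 0.294). Sfrp2, a secreted modulator of Wnt signalling, was at 6.82 and 9.72 CPM under vector and 1.16 and 1.58 CPM with oridonin, and its relative Sfrp1 at 36.9 and 32.4 CPM under vector and 18.4 and 18.9 CPM with oridonin. Both genes were apart. Myoc, the secreted protein myocilin, was at 19.6 and 19.4 CPM under vector and 7.73 and 6.11 CPM with oridonin. Gli2, a transcription factor of hedgehog signalling, was at 3.93 and 4.04 CPM under vector and 1.03 and 1.3 CPM with oridonin, and Igsf10 at 4.12 and 4.5 CPM under vector and 1.3 and 0.823 CPM with oridonin. The replicates of Myoc, Gli2 and Igsf10 were closer to each other than to the other group.

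At low counts, Chi3l1, a secreted chitinase-like protein, had 53 and 71 counts under vector and 5 and 0 with oridonin, a ratio of 23.5 (exact 95% interval 9.79 to 73.5). Cilp2, a cartilage matrix protein, had 76 and 21 counts under vector and 2 and 0 with oridonin, a ratio of 45.9 (12.4 to 384). A2m, a protease inhibitor picked after its values were seen, had 28 and 16 counts under vector and 0 in both oridonin libraries, at least 13.9-fold lower with a floor of 3 counts over the group. The intervals cover counting error only. Chi3l1, Cilp2 and A2m passed the filter through the vector libraries alone, so they had to be lower. In the WT library, which has no replicate, these genes had at most 1 count.

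Fewer genes were higher with oridonin. Slc15a2, a transporter of small peptides (chromosome 16, 36750177 to 36784962, minus strand), had 2 and 1 counts in the vector libraries, 147 and 90 in the oridonin libraries and 171 in WT. Near silence in both vector hearts gave a ratio of 83.5 (exact 95% interval 28.2 to 408, which covers counting error only). Slc15a2 passed the filter through the oridonin libraries alone, so it had to be higher. Its log2 difference was 5.98 (standard error 0.60; limma, adjusted p = 0.294). Lgr6, a receptor for R-spondins, which strengthen Wnt signals (chromosome 1, 134983301 to 135105276, minus strand), was at 4.76 and 2.61 CPM under vector and 39 and 31.6 CPM with oridonin, and at 32.3 CPM in WT. Its log2 difference was 3.30 (standard error 0.34; limma, adjusted p = 0.294). Timp4, the heart-enriched inhibitor of matrix metalloproteinases (chromosome 6, 115241892 to 115252205), was at 18.9 and 24.3 CPM under vector and 59.7 and 54.3 CPM with oridonin, and at 94.5 CPM in WT. The 4 Tet2 values of Timp4 lay below the WT value, the vector pair farthest from it.

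Genes of striated muscle were among the others. Mybpc2, the fast-muscle form of myosin-binding protein C, was at 7.98 and 7.24 CPM under vector and 14.7 and 16.8 CPM with oridonin, and Myot, the Z-disc protein myotilin, at 21.1 and 49.9 CPM under vector and 74.7 and 129.9 CPM with oridonin. Alpk2, an alpha-kinase of heart muscle, was at 96.6 and 78.3 CPM under vector and 129 and 181 CPM with oridonin, and Trim7, a ubiquitin ligase that binds glycogenin, at 14.3 and 17.6 CPM under vector and 29.1 and 25.6 CPM with oridonin. Replicates of Myot and Alpk2 differed within groups, yet the groups did not overlap for these 4 genes. Zbtb16, a zinc finger transcription factor induced by glucocorticoids, was at 16 and 7.56 CPM under vector and 24.2 and 45.3 CPM with oridonin, and at 122 CPM in WT. Slc12a5, a potassium-chloride transporter of neurons, was at 2.83 and 1.76 CPM under vector and 5.54 and 7.2 CPM with oridonin. The rule for the sharpest separations also named Vwa3a, Dynlt1b, Sh3gl2, Vipr1, Chrna10, Rab7b and Arc, all of them at most 6.77 CPM, the level of Vwa3a in the first oridonin library. Chrna10 passed the filter through the oridonin libraries alone, so it had to be higher.

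Among genes with a position under their symbol in the annotation, chromosome 1 carried 15 apart and lower by at least 1. It carried 5 apart and higher by at least 1, of 723 tested genes there. The lower share was 2.07%, while chromosome 3 had 2.79%, chromosome 6 had 2.12% and chromosome 17 had 2.06%. The higher share was 0.692%, while chromosome 18 had 1.22% and chromosome 16 had 0.781%. Over all tested genes, with or without a position, the shares were 1.19% lower and 0.427% higher. Chi3l1 had no position under that symbol and is not among the 15. On chromosome 1, Rab7b, Fmod, Chi3l1 (listed as Chil1 in the annotation, 134182156 to 134190031) and Lgr6 lie between 131688695 and 135105276, with Rab7b and Lgr6 higher and Fmod and Chi3l1 lower with oridonin.

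**Figure D2:**
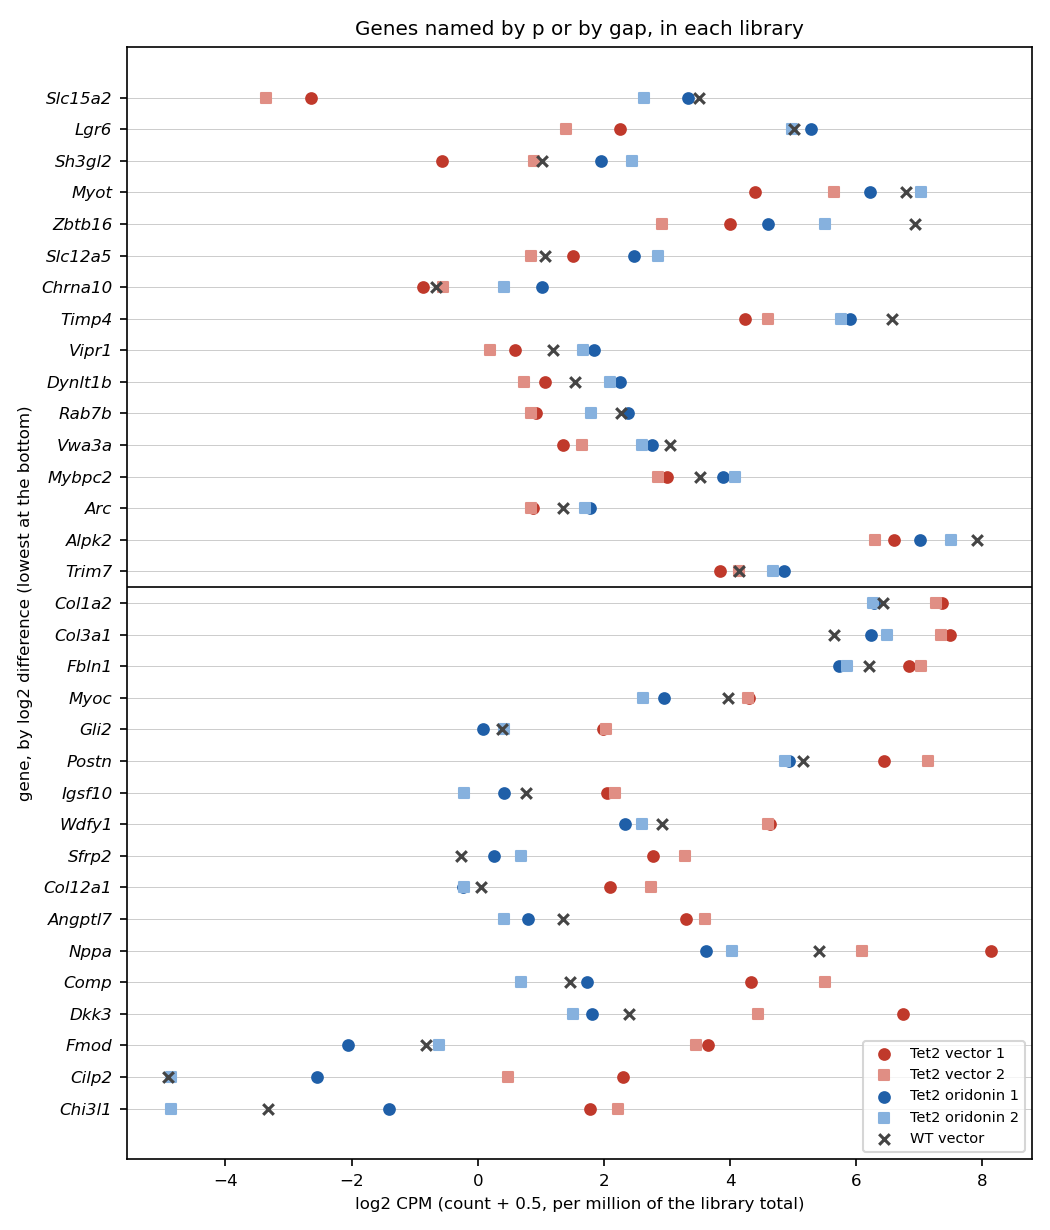
Log2 CPM on the horizontal axis of genes named by p or by gap, 1 gene a line, with red symbols for the 2 vector libraries, blue for the 2 oridonin libraries and a cross for WT. Red and blue symbols do not overlap on any line, which the choice of genes fixes. The gap is widest for Slc15a2, from 0.129 CPM in the higher vector library to 6.18 CPM in the lower oridonin library. Slc15a2 passed the filter through the oridonin libraries alone.

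Fibrillar collagens, the load-bearing fibres of the scar and of normal interstitium, were lower with oridonin nearly throughout. Of 12 tested of 13 listed, 11 had a lower mean (59.8% of all genes did) and 10 were apart and lower (17.7% of all genes). Of the 12, Col12a1 passed the filter through the vector libraries alone and had to differ. Their median log2 difference was -0.82, against -0.05 over all genes, and it stayed between -0.94 and -0.76 with any 1 library left out. Col1a2 and Col1a1, the chains of type I collagen, were at 163 and 154 against 78.1 and 76.8 CPM and at 99.3 and 102 against 51.8 and 57.9 CPM (vector first, here and below). Col3a1, the type III chain, was at 179.6 and 163 against 75.2 and 89.8 CPM. In each of these the vector pair and the oridonin pair lay close within themselves and did not overlap. The fibril-associated chains differed more: Col12a1 was at 4.25 and 6.65 against 0.82 and 0.823 CPM and Col14a1 at 31.1 and 23.9 against 6.15 and 10.3 CPM. Col5a3 was the exception, at 7.08 and 8.48 against 9.5 and 7.89 CPM with overlapping groups. In whole tissue, fewer cells of a type and less RNA per cell cannot be told apart.

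Small leucine-rich proteoglycans, which bind fibrils and set their spacing, were lower in the 10 that passed the filter, of 15 listed. Of the 10, 9 were apart and lower (17.7% of all genes). Of these, 2 (Fmod and Omd) passed through the vector libraries alone. Their median log2 difference was -0.95 (-1.02 to -0.84 with a library left out). Besides Fmod, Ogn, or osteoglycin, was at 169 and 167 against 62.3 and 95.9 CPM, and Lum, or lumican, at 114 and 99.2 against 48.9 and 57.5 CPM. Dcn, or decorin, a regulator of fibril growth, was at 758 and 901 against 472 and 482 CPM. Aspn, or asporin, was at 36.2 and 64.2 against 9.91 and 18.2 CPM, and Bgn, or biglycan, at 244 and 312 against 154 and 174 CPM. None of these 5 overlapped between the groups.

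Genes of tendon, cartilage and valve connective tissue had the lowest median of the 47 lists with tested members, -1.38 (-1.51 to -1.14 with a library left out). The 14 that passed the filter, of 27 listed, had a lower mean, and 9 were apart and lower (17.7% of all genes). Of these, 3 (Fmod, Cilp2 and Omd) passed through the vector libraries alone, so they had to be lower. Single libraries mattered within this list. Thbs4, a thrombospondin of tendon and muscle, was at 11.9 and 70 against 4.24 and 4.73 CPM, so its log2 difference of -2.68 became -1.40 without the second vector library. Cilp, the cartilage intermediate layer protein made by cardiac fibroblasts, was at 19.6 and 117 against 12.9 and 12.7 CPM, and its difference went from -1.90 to -0.61 without the second vector library. That library was the highest of the 4 for Comp, Thbs4 and Cilp alike.

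Enzymes and scaffolds that build the matrix were lower to a smaller extent. Of 27 tested genes of collagen processing, crosslinking and elastic fibres, of 30 listed, 22 had a lower mean. Of the 27, 17 were apart and lower (17.7% of all genes) and 0 apart and higher (8.34% of all genes). The median was -0.37 (-0.44 to -0.36 with a library left out). Adamts2, which removes the amino-terminal propeptide of procollagens, was at 35.7 and 35.1 against 20.2 and 19.6 CPM. Fbln1, or fibulin 1, of elastic fibres and basement membranes, was at 114 and 131 against 53.2 and 58.1 CPM. Loxl3, a crosslinking amine oxidase, was at 6.31 and 10.1 against 2.94 and 4.25 CPM. Ltbp2, a fibrillin-binding protein, was at 8.05 and 28.8 against 4.44 and 3.43 CPM, another gene highest in the second vector library. Adamts2 and Fbln1 had close replicates, and all 4 genes were apart.

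Matricellular proteins, which signal from the matrix without bearing load, were lower in 16 of 17 tested (median -0.66, or -0.82 to -0.33). Of the 17, 11 were apart and lower (17.7% of all genes). Besides Postn, Thbs1, an activator of latent TGF-beta, was at 24.9 and 15.8 against 7.59 and 8.71 CPM, and Ccn2, or connective tissue growth factor, a gene that TGF-beta induces, at 57.5 and 92.6 against 35.7 and 25.2 CPM. Ccn2 stood at 151 CPM in the WT library, above all 4 Tet2 libraries. Of 21 TGF-beta ligands, receptors and latency proteins, 19 had a lower mean but 5 were apart and lower, against a background of 17.7%, and 1 was apart and higher (median -0.12, or -0.30 to 0.0013). Tgfb3, a ligand, was at 18.9 and 27.3 against 17.8 and 13.2 CPM where the lower vector value and the higher oridonin value nearly met.

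Basement membrane genes, the sheet under endothelium and around heart muscle cells, did not share this pattern. Of 20 tested, 9 had a higher and 11 a lower mean, with a median of -0.01 (-0.29 to 0.30). Of the 20, 2 were apart and higher (8.34% of all genes) and 1 apart and lower (17.7% of all genes). The type IV collagen chains Col4a1 and Col4a2 were the members apart and higher, at 192 and 175 against 222 and 247 CPM and 156 and 150.1 against 208 and 204 CPM. The difference between the fibrillar and basement membrane lists was not tested.

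Proteases and inhibitors of the matrix were divided. Of 20 tested of 24, 13 had a lower mean (median -0.27). Of the 20, 7 were apart and lower (35%, 17.7% of all genes) and 1, Timp4, apart and higher (5%, 8.34% of all genes). Mmp2, a gelatinase made by fibroblasts, was at 68.4 and 95.1 against 49 and 43.8 CPM.

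Markers of resident fibroblasts, the cells that make most of these proteins, were lower, in a list that shares genes with those above. Of 23 tested of 24, 22 had a lower mean and 18 were apart and lower (17.7% of all genes), with a median of -0.63 (-0.67 to -0.45). Pdgfra, the receptor that defines the lineage, was at 61 and 42.6 against 30.4 and 31.6 CPM, and Tcf21, its transcription factor, at 13.6 and 9.59 against 7.04 and 7 CPM. Dpt, or dermatopontin, was at 150.4 and 126 against 80.3 and 71.2 CPM. Activated fibroblast markers were lower in 15 of 16 tested of 19, with 11 apart and lower (17.7% of all genes; median -0.94). Lum and Dcn count in both the resident and the proteoglycan list. Comp counts in both the activated and the tendon list, and Postn in both the activated and the matricellular list. Among the matrix lists, Fmod is in both the proteoglycan and the tendon list, and Thbs4 in both the tendon and the matricellular list. Acta2, smooth muscle actin, belongs to myofibroblasts and to vessel walls, and was at 479.7 and 214 against 215 and 88.6 CPM with overlapping groups. The summed level of the resident list was 4539 and 4598 CPM under vector and 2986 and 2852 CPM with oridonin, and that of the activated list 827 and 810.1 CPM against 397 and 269.8 CPM. In WT the sums were 4138 and 323 CPM. The part of the number of fibroblasts in the matrix values was not tested.

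**Figure D3:**
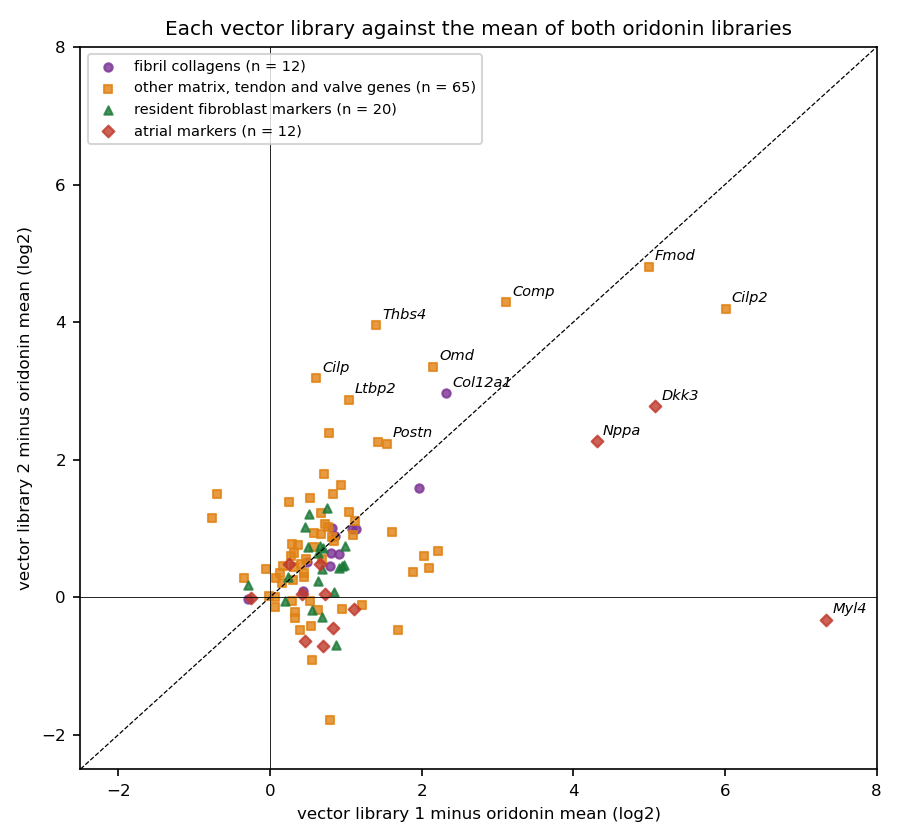
Each point is 1 tested gene of a matrix, fibroblast or atrial list, with its log2 difference from the mean of both oridonin libraries in vector library 1 (horizontal axis) and vector library 2 (vertical axis), and a dashed line of equality. Fmod lies near the line, Thbs4 and Cilp lie above it, and Dkk3, Nppa and Myl4 lie below it.

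Atrial genes set the first vector library apart. Nppa, the atrial natriuretic peptide, which stressed ventricles also make, was at 281 and 68.3 CPM under vector and 12.3 and 16.3 CPM with oridonin, and at 42.4 CPM in WT. Dkk3, a secreted Dickkopf-family protein, was at 107 and 21.7 CPM under vector and 3.49 and 2.81 CPM with oridonin. Both were high in the first vector library and apart between the groups. Without that library the log2 difference was -2.27 for Nppa and -2.78 for Dkk3, and without the second vector library it was -4.31 and -5.08. The 12 tested atrial markers had a median of -0.38, which was -0.02 without the first vector library and -0.72 without the second. The summed level of all 16 listed atrial markers, with those under the filter, was 2761 and 1356 CPM under vector and 1274 and 1375 CPM with oridonin. Without the first vector library the fibrillar collagen median was -0.76.

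Gene lists of heart muscle differed in direction. Of 28 sarcomere and Z-disc genes, 22 had a higher mean (40.2% of all genes did) and 8 were apart and higher (8.34% of all genes), with a median of 0.17 (0.09 to 0.24). Actn2, the alpha-actinin that anchors thin filaments at the Z-disc, was at 1468 and 1525 against 1752 and 1845 CPM. Fatty acids fuel most of the work of the heart. Of 40 genes that import or oxidise them, 30 had a higher mean (40.2% of all genes did). Of the 40, 13 were apart and higher (32.5%, 8.34% of all genes). The median was 0.11 (0.04 to 0.16), with 0.04 reached without the first oridonin library. The summed level of the list overlapped between the groups, at 22578 and 25086 CPM under vector and 24655 and 24972 CPM with oridonin. Cd36, the fatty acid transporter, was at 1463 and 1446 against 1772 and 1817 CPM, and at 2277 CPM in WT. Ucp3, an inner mitochondrial membrane carrier, was at 26.7 and 25 against 66.7 and 33.3 CPM. For calcium handling and ion channels the median was 0.16 and 6 of 33 tested were apart and higher, but the median was -0.14 without the second vector library. Stress genes of heart muscle had a median of -0.25 (-0.46 to -0.04) over 20. Of the 20, 6 were apart and lower (30%, 17.7% of all genes) and 1 apart and higher (5%, 8.34% of all genes). Nuclear-encoded respiratory chain subunits had a median of -0.02 (-0.16 to 0.15) over 60.

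Genes of the pathways that the series title and the known pharmacology of oridonin bring into question were mostly near the background. Of 28 enzymes and readers that set, remove or bind H3K4 methylation, 3 were apart and higher (10.7%, 8.34% of all genes). Another 4 of the 28 were apart and lower (14.3%, 17.7% of all genes), and the median was 0.04 (-0.25 to 0.32). Of 10 TET and DNMT enzymes 0 were apart. Of 15 tested inflammasome and pyroptosis genes of 22, 12 had a lower mean (median -0.17). Of the 15, 3 were apart and lower (20%, 17.7% of all genes) and 0 apart and higher. Nlrp3 itself was under the filter, with 3 and 3 counts under vector and 4 and 7 with oridonin. Il1b, the cytokine that NLRP3 matures, had 10 and 12 counts against 10 and 8. At this depth no difference in either was detectable. Pathway and feedback genes of NF-kappa-B had a median of 0.04 over 24 and NRF2 antioxidant genes one of -0.01 over 30. Of the 30, 6 were apart and higher (20%, 8.34% of all genes) and 5 apart and lower (16.7%, 17.7% of all genes).

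Secreted factors linked to senescence were divided: of 32 tested of 50, 22 had a lower mean, with a median of -0.27 (-0.33 to -0.13). Of the 32, 11 were apart and lower (34.4%, background 17.7%) and 4 apart and higher (12.5%, background 8.34%). Members that are also matrix genes were among the lower ones, such as Mmp2 and Fn1, or fibronectin, at 93.7 and 64.5 against 42.7 and 44 CPM. Igfbp3, which binds insulin-like growth factors, was at 42.6 and 49.2 against 30.5 and 26.3 CPM. Plau, the urokinase that activates plasminogen, was higher, at 5.21 and 4.7 against 8.2 and 7.48 CPM. Il6 and Il1a, the classical cytokines of this secretome, had at most 2 counts in every library. Cdkn2a, the locus of the cell cycle inhibitors p16 and p19, had 28 and 1 counts under vector and 3 and 8 with oridonin, so that the groups overlapped. Cell cycle inhibitors and p53 targets had a median of -0.03 over 24. Of the 24, 2 (8.33%) were apart in each direction, against a background of 8.34% higher and 17.7% lower.

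Immune genes differed by class. Interferon-stimulated genes were lower in 36 of 41 tested (median -0.27, or -0.51 to -0.18). Of the 41, 18 were apart and lower (43.9%, 17.7% of all genes) and 1 apart and higher. Gbp2 and Igtp, GTPases that interferon-gamma induces against microbes in vacuoles, were at 43.1 and 52.2 against 25.8 and 28.1 CPM and 45.8 and 55.2 against 30.3 and 29 CPM. Gbp5 was at 25.2 and 32.9 against 13.3 and 17.6 CPM, and Gbp7 at 36.6 and 27.5 against 4.38 and 26.6 CPM, where 1 oridonin library stood apart from the other 3. Genes that display peptides on MHC class II were higher in 6 of 7 tested, all 6 of them apart (8.34% of all genes), with a median of 0.73 (0.39 to 0.95). Cd74, the invariant chain, was at 73 and 116 against 177 and 135 CPM, and H2-Aa and H2-Ab1, chains of the class II dimer, at 36.8 and 54.5 against 82 and 61.8 CPM and 27.7 and 50.8 against 84.9 and 51.7 CPM. The second vector and the second oridonin library nearly met for H2-Ab1, and for H2-Eb1, at 32.9 and 58.7 against 89.7 and 59.3 CPM. Centred on the mean of the 4 libraries, the median level of the class II list was -0.62 and -0.04 against 0.57 and 0.07. The difference between the interferon and class II lists was not tested.

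Macrophage and monocyte markers had a median of -0.20 over 29, which was -0.02 without the first vector library and -0.62 without the second. Centred on the mean of the 4 libraries, their median level was 0.49 and -0.16 under vector. With oridonin it was -0.08 and -0.15, so that the groups overlapped. Of the 29, 9 were apart and lower (31.0%, 17.7% of all genes) and 2 apart and higher (6.90%, 8.34% of all genes). Lyz2, or lysozyme, was at 338 and 215 against 171 and 173 CPM, Lgals3, or galectin 3, at 7.53 and 6.78 against 3.97 and 3.77 CPM, and Trem2, a lipid receptor of macrophages, at 3.35 and 3.72 against 1.78 and 1.65 CPM. Cx3cr1, of resident macrophages and monocytes, was higher at 1.16 and 0.913 against 1.71 and 3.29 CPM. Markers of T and NK cells were too low to test, 0 of 17, and summed to 5.4 to 6.6 CPM in the 4 libraries. S100a9, of neutrophils, was at 3.99 and 5.8 against 0.957 and 2.13 CPM. Complement genes were lower in 17 of 21 tested with 8 apart and lower (17.7% of all genes). Their median was -0.31, and it was -0.065 without the first vector library and -0.53 without the second. Among them was Serping1, the C1 inhibitor, at 169 and 199 against 118 and 127 CPM.

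Among chemokines, 6 of 18 tested of 30 were apart and higher (8.34% of all genes) and 3 apart and lower (17.7% of all genes), with a median of 0.21 (0.072 to 0.43). Ccl7, which draws monocytes, had 42 and 8 counts against 48 and 74, and Ccl11, or eotaxin, was at 5.15 and 0.717 against 9.3 and 6.11 CPM. For both, the second vector library was far below the other 3, and the log2 difference of Ccl11 was 3.34 without the first vector library and 0.55 without the second. Cxcl12, a chemokine of stromal cells that retains leukocytes, was at 310.1 and 238 against 356 and 349 CPM.

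Red cell genes were higher in 7 of 8 tested of 12, all 7 apart (8.34% of all genes), with a median of 0.82 (0.32 to 1.24). Hba-a1, an alpha globin, was at 196 and 120.2 against 315 and 251 CPM, and Hbb-bt, a beta globin, at 21.1 and 11.6 against 31.6 and 32.2 CPM. The tested member with a lower mean was Tfrc, the transferrin receptor, which many other cells also use to take up iron, at 254 and 118 against 90.5 and 146 CPM. Tfrc took a large share of the summed level of the list, which was 656 and 416 CPM under vector and 637 and 634 CPM with oridonin and so overlapped. Globin levels were thus higher in both oridonin hearts beside the MHC class II genes, and their part in those was not tested. The 28 tested endothelial markers had a median of 0.18 with 6 apart and higher (21.4%, 8.34% of all genes). That median became -0.03 without the first vector library.

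Ribosomal protein genes, short and abundant transcripts of the cytosolic ribosome, were lower in 73 of 76 tested (59.8% of all genes were). Their median was -0.25, and it was -0.42 without the first vector library and -0.07 without the second. The summed level of all 77 listed overlapped between the groups, at 15022 and 18858 CPM under vector and 15026 and 13531 CPM with oridonin. Of the 76, 33 were apart and lower (43.4%, 17.7% of all genes) and 2 apart and higher (2.63%, 8.34% of all genes). Rps27a was at 103 and 75.8 against 42.1 and 46.5 CPM, while Rpl21 went the other way at 20.8 and 25.6 against 35.1 and 65.8 CPM. Both have many processed copies in the mouse genome, and the sources used here do not say how reads were shared among them. Hspa1a, an inducible chaperone of the heat shock response, was at 3.41 and 4.3 against 0.752 and 1.24 CPM and 8.33 CPM in WT, and its near-identical neighbour Hspa1b at 2.9 and 5.15 against 0.889 and 1.99 CPM, so that reads may be split between the copies. The whole list of 33 heat shock and unfolded protein genes had a median of -0.02. Of 21 tested glucocorticoid-induced genes, 3 were apart and higher (14.3%, 8.34% of all genes) and 6 apart and lower (28.6%, 17.7% of all genes). Zbtb16 was among the higher ones. The lower ones included Errfi1, a brake on EGF receptor signals, at 33.1 and 31.2 against 19.4 and 14.1 CPM. Tsc22d3, or GILZ, was at 109 and 111 against 83.8 and 65.9 CPM. Circadian clock genes had a median of 0.10 over 18, with 1 (5.56%) apart in each direction.

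**Figure D4:**
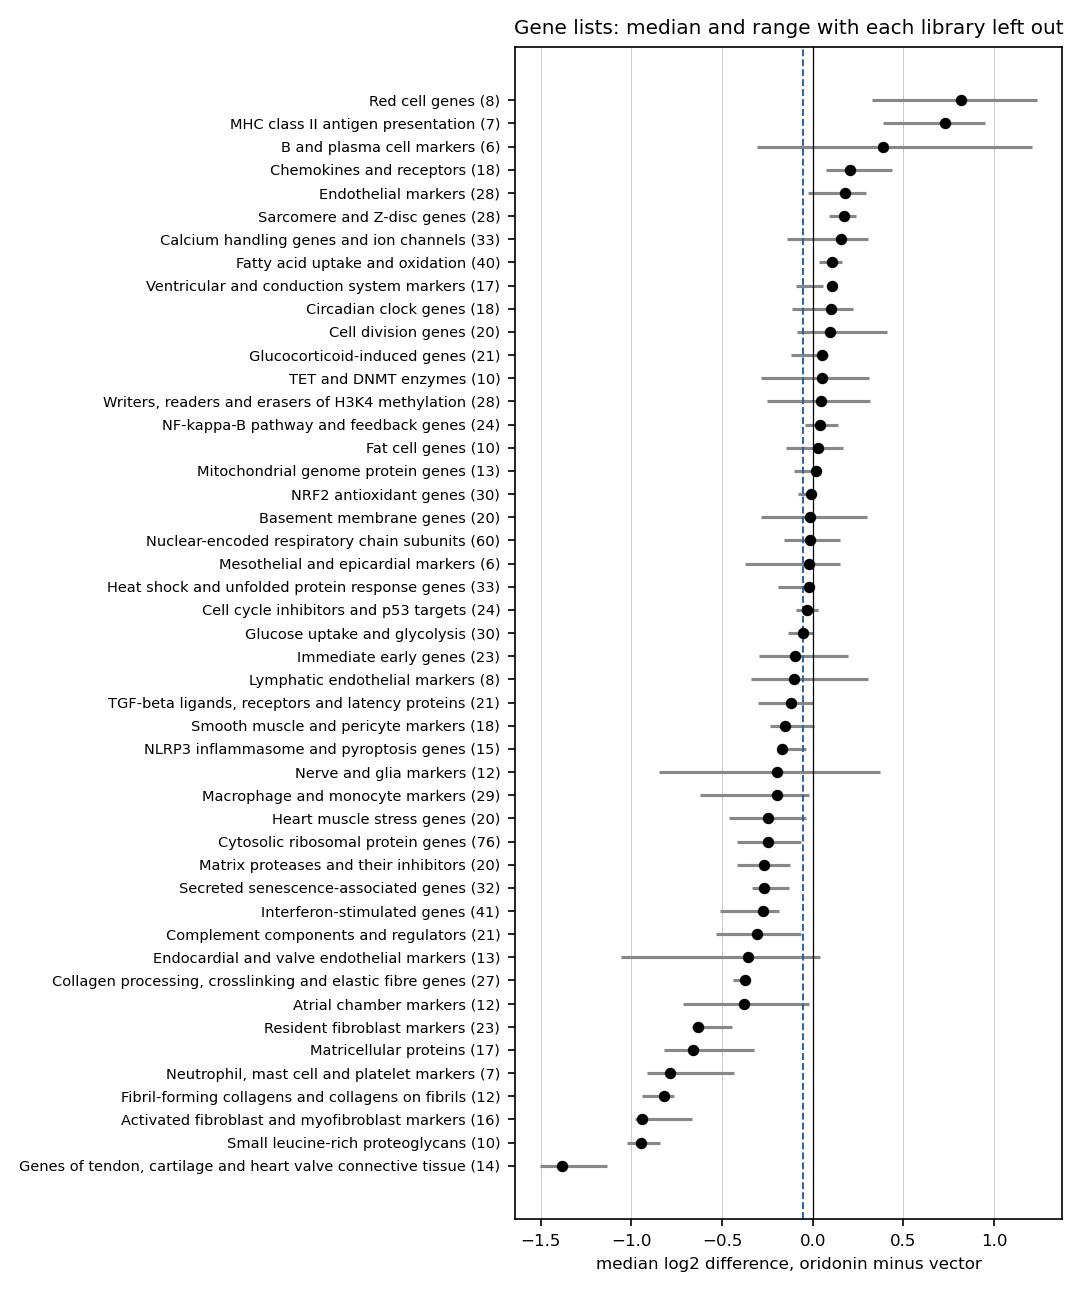
Median log2 difference, oridonin minus vector, of the tested members of each gene list (dot; number tested in brackets) and the range of the median when each library is left out in turn (bar), with a dashed line at the median of all genes, -0.05. The connective tissue, proteoglycan, collagen and fibroblast lists lie lowest with bars clear of 0, and red cell and MHC class II genes lie highest.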

How the data were processed

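Poly-A RNA of hearts was sequenced after library preparation with the NEBNext Ultra kit, as the labels' protocols state. Whether strand was kept is not said there, so a gene and its antisense partner cannot be told apart. The genome build was mm10, per the submitters' processing notes. For the aligner, counter and annotation, a name was not given in the sources used here. What the authors deposited is 1 table of log2 CPM for 17818 symbols and 5 columns, and 0 columns lacked a sample. In the Tet2 libraries each value, once unmixed, is log2 of a CPM in which 0.5 was added to the count. The Tet2 columns were mixed as 0.75 own and 0.25 other replicate, and were unmixed here as 1.5 times own minus 0.5 times other. Whole counts (within 0.01) then returned for 99.92% to 99.94% of genes, against 9.06% to 10.4% as deposited. The WT column was used as deposited, gave whole counts for 33.5% of genes, and its counts were rounded. The sample titles give 1 or 2 months and other labels 2 months for all, so the number in a title served only as a replicate number. Positions are those of GENCODE genes on GRCm38.

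Limma 3.58.1 in R 4.3.3, with trend and robust empirical Bayes, was fitted to the 4 Tet2 libraries with group as the only term and 2 residual degrees of freedom, after keeping genes of at least 1 CPM in at least 2 libraries. P-values were adjusted by Benjamini-Hochberg over all 12639 genes. The members and the 48 gene lists were chosen with earlier results of these data known, and some lists share members. Named genes, beside Tet2 and Kdm5c, averaged 1 CPM or more, were apart between the groups and had a symbol that is no predicted, clone or pseudogene name. They were the 12 of smallest p and the 12 of widest gap in each direction. From each list came up to 4 members per direction of smallest p, apart or not. Named outside this rule, after their values were seen, were A2m, Sfrp1, Col1a1, Ogn, Bgn, Cilp, Pdgfra, Tcf21, Gbp5, Gbp7, Nlrp3, Il1b, Il6, Il1a, Cdkn2a, Myh6, Myl4, Myl7, Plin1, Cidec and Adig. Alternatives were voom, other scalings and filters, all 5 libraries, the mixed values, a replicate block and leaving out each library. Tests were two-sided. Some genes that the rule names are not reported here.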

Additional observations from a re-analysis of the deposited data

How the results depend on the processing

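The count of genes called by limma at an FDR of 0.05 was 0 with voom, without robust estimation, with all 5 libraries, with median-ratio size factors, with totals that leave out mitochondrial genes, with no filter and with a mean of at least 5 CPM. The deposited mixed values gave 88 calls, since the mix makes replicates more alike. Leaving out 1 library gave 3 to 56 calls. With the replicate number as a replicate block there were 9 calls (Angptl7, Aspn, Comp, Dkk3, Fmod, Lgr6, Postn, Slc15a2 and Wdfy1). The samples share only a number: deviations of same-numbered libraries from their group means had r = -0.31 over 12639 genes and -0.43 over 9872 genes of at least 5 CPM on average. A crossed replicate block, added after seeing the data, gave 47 calls.

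Genes apart and higher numbered 1661 with median-ratio size factors, where 1584 were apart and lower, and 2143 with no filter. Apart by at least 1, the higher genes numbered 807 with no filter, 12 at a mean of at least 5 CPM and 82 to 296 with a library left out, and the lower genes 657, 56 and 205 to 503. Of 47 lists, 24 had a median of both signs over the fits that leave out 1 library. Those of them whose main median exceeded the spread between replicates were endothelial markers (-0.028 without the first vector library, and up to 0.29 without the second), smooth muscle and pericyte markers (0.0088 without the second oridonin library, and down to -0.24 without the first), and ventricular and conduction markers (-0.091 and -0.02 without the first and second vector library, -0.03 without the first oridonin library, and 0.057 without the second). Fold changes of genes under about 1 CPM rest on few counts.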

Other observations

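Some fat cell genes were high in 1 library of each group. Car3, a carbonic anhydrase of fat cells, had 194 and 5 counts under vector and 4 and 44 with oridonin, and Cfd, or adipsin, had 76 and 0 counts against 1 and 36. The first vector and the second oridonin library were thus the high ones. Under the filter, Plin1 had 24 and 0 counts against 0 and 9, and Cidec 19 and 3 against 0 and 13. Adig went the other way, with 2 and 15 counts against 13 and 5. The 10 tested fat cell genes had a median log2 difference of 0.03. Of the 10, 1 (10%) was apart in each direction, against 8.34% of all genes higher and 17.7% lower.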
